A study of Sus scrofa with 4 samples.

Results

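Transcript levels of 10 genes that build, cut or buffer actin filaments were followed in mature porcine oocytes with and without copper (Cu) exposure. The 10 genes were taken by symbol from a table of 30684 rows and encode a formin (FMN2), the spire proteins (SPIRE1 and SPIRE2), subunits of the Arp2/3 complex (ACTR2, ACTR3 and ARPC3), cofilin (CFL1), profilin (PFN1) and the beta-thymosins (TMSB10 and TMSB4X). The set was selected on the FPKM of the Control libraries against those of the Cu libraries, with this comparison already known, and TMSB10 was included because it was seen to be higher in the Cu libraries. The differences of these 10 genes between the groups are therefore given as a description, without a test. Of the 10 genes, 9 had values in every library. The row of SPIRE2 held no values, and SPIRE2 was not analysed here.

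RNA was sequenced from metaphase II oocytes of Sus scrofa in 4 libraries, 2 labelled Control (replicates 1 and 2) and 2 labelled copper treatment (replicates 1 and 3, called Cu 1 and Cu 3). Oocytes of both groups came from slaughterhouse ovaries and were matured in vitro for 44 h in TCM-199 medium with follicular fluid, EGF and gonadotropins, and the Cu medium also held copper sulfate at 25 μg/mL. Each library pooled 3 oocytes, which were lysed together, and their RNA was amplified with Smart-seq2, which copies the polyadenylated transcripts of a few cells. Neither genotype nor donor animal was given, and nothing in the labels says that the libraries of a group came from separate cultures, so any p-value measures only the spread between these libraries.

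Actin filaments assemble from monomers, and cells set the place of assembly with nucleators. Formins and spire proteins start unbranched filaments and together build the cytoplasmic actin network of the oocyte that moves the meiotic spindle to the cortex, whereas the Arp2/3 complex starts branched filaments and is known for the thick actin cap of the oocyte cortex. Cofilin cuts and disassembles old filaments, profilin hands monomers to growing ends, and beta-thymosins bind monomers and hold them in reserve.

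Expression is given as FPKM, in which fragments are divided by transcript length and by the fragment total, so levels of different genes can be compared with each other. FPKM do not keep the number of reads, so how deeply a library was sequenced is unknown. Between 7923 and 9364 genes per library were at 1 FPKM or more, with the largest number in Cu 1. Over 8541 genes, log2(FPKM + 1) correlated between the Control libraries with a Pearson's r of 0.976, whereas r was 0.923 between Cu 1 and Cu 3 and at most 0.921 between Cu 1 and a Control library, so Cu 1 stood apart. The 16 oocyte markers with values each reached 1 FPKM in some library, and their summed level ranged from 7716 to 9473 FPKM in the Control libraries and from 8315 to 11532 FPKM in the Cu libraries. Of 15 cumulus and granulosa cell markers with values, 12 were below 1 FPKM in every library, AMH was listed at 0 throughout, and the summed level was 12.8 to 20.0 FPKM in the Control and 16.7 to 21.6 FPKM in the Cu libraries. Most of this sum was FST, with 10.2 to 15.95 FPKM. The 3 leukocyte markers with values summed to at most 2.09 FPKM.

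The 9 genes covered a wide span of levels, as the plot of FPKM by library shows. TMSB4X was by far the most abundant, above 99.2% to 99.7% of all genes with values in the 4 libraries. At the other end, CFL1 and FMN2 lay above 62.1% and 64.9% of genes in Control 1. In the order of the Control means, TMSB4X (1428 FPKM) was followed by ACTR2 (43.1), PFN1 (40.6), TMSB10 (33.7), SPIRE1 (21.3), ACTR3 (15.3), ARPC3 (5.75), FMN2 (3.82) and CFL1 (3.27). The ranges of the 2 Control libraries overlapped between PFN1 and its neighbours ACTR2 and TMSB10, and between ARPC3 and FMN2 and between FMN2 and CFL1, so these neighbours were not separated. In the order of the Cu means, TMSB10 (140.9 FPKM) stood directly behind TMSB4X, and ARPC3 (34.5 FPKM) stood ahead of SPIRE1 and ACTR3 through Cu 1, since in Cu 3 it was below both.

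**Figure D1:**
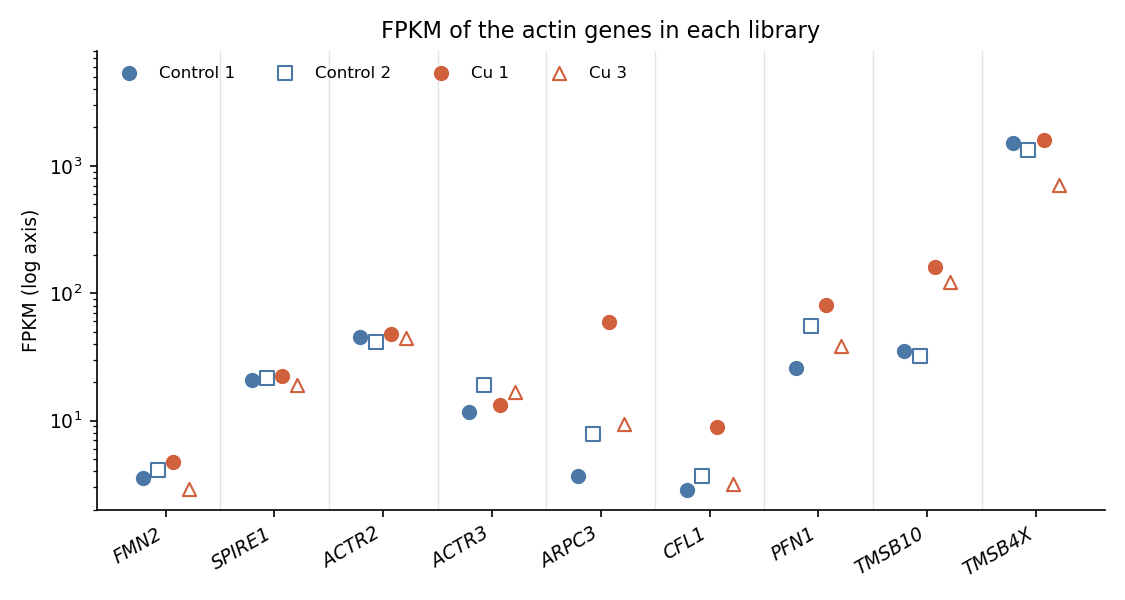
FPKM on a log axis of the 9 genes with values, 1 point per library, with Control 1 and 2 in blue and Cu 1 and 3 in orange. The Cu and Control points do not overlap for TMSB10 and ARPC3, and for ARPC3 the distance comes mainly from Cu 1 at 59.5 FPKM.

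For the nucleators of unbranched filaments, FMN2 and SPIRE1, the groups overlapped in the FPKM as deposited, while under both scalings described below the Cu libraries lay below the Control libraries. FMN2, the formin required for spindle positioning in mouse oocytes, had 3.54 and 4.10 FPKM in Control 1 and Control 2, against 4.71 and 2.92 FPKM in Cu 1 and Cu 3. The Control libraries thus lay between the Cu libraries. The log2 difference (Cu minus Control, on log2(FPKM + 1) here and below) was -0.024, or -0.30 without Cu 1 and 0.25 without Cu 3. Its standard error (SE) was 0.38. Each SE, here and below, is the moderated one from limma, which draws the variance of a gene towards that of all tested genes at its level. It can thus be larger or smaller than the gene's own libraries alone would give. SPIRE1, which works together with FMN2 and adds actin monomers in a row to start a filament, had 20.9 and 21.6 FPKM in Control 1 and Control 2, against 22.2 and 19.0 FPKM in Cu 1 and Cu 3. Here too the Control libraries lay inside the range of the Cu libraries, with a log2 difference of -0.048 (SE 0.32). The spread within a group was small for SPIRE1, 1.03-fold between the Control libraries and 1.17-fold between the Cu libraries. Within each library SPIRE1 was 4.72 to 6.51 times as abundant as FMN2, and the Control ratios of 5.92 and 5.27 lay inside the range of the Cu ratios. The authors' means were 4.40 FPKM in Control and 3.94 FPKM in Cu for FMN2, and 22.3 and 19.4 FPKM for SPIRE1. FMN2 is placed on no chromosome in the RefSeq table of Sscrofa11.1, and SPIRE1 (identifier 100623382) spans bases 96934023 to 97114591 of chromosome 6.

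The 3 Arp2/3 subunits behaved differently from each other. ACTR2 (Arp2), one of the actin-related proteins that form the start of the branch, had 45.2 and 41.0 FPKM in Control 1 and Control 2, against 47.6 and 44.1 FPKM in Cu 1 and Cu 3. The groups overlapped and no library was more than 1.10-fold from its partner, with a log2 difference of 0.088 (SE 0.30). ACTR3 (Arp3), its partner in the branch, had 11.7 and 19.0 FPKM in Control 1 and Control 2, against 13.3 and 16.9 FPKM in Cu 1 and Cu 3. Both Cu libraries lay between the Control libraries, with a log2 difference of 0.0042 (SE 0.39). ARPC3 (p21-Arc), a small subunit of the complex, had 3.66 and 7.83 FPKM in Control 1 and Control 2, against 59.5 and 9.44 FPKM in Cu 1 and Cu 3. Cu 3 was only 1.21-fold above the higher Control library, whereas Cu 1 was 6.30-fold above Cu 3, so the log2 difference of 1.97 (SE 0.85) came mostly from 1 library and was 0.70 without Cu 1. Within a library ARPC3 stood at 0.081 and 0.19 of ACTR2 in Control 1 and 2 and at 1.25 and 0.21 of ACTR2 in Cu 1 and 3. The authors' means for ARPC3 were 12.3 FPKM in Control, which is above both Control libraries analysed here, and 29.0 FPKM in Cu. In Sscrofa11.1 ACTR2 lies on chromosome 3 (76691275 to 76729269), ACTR3 on chromosome 15 (20104808 to 20171721) and ARPC3 on chromosome 14 (31814382 to 31823452).

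The other 7 Arp2/3 genes were measured too, and its genes differed in direction, as the plot of the complex by library shows. ARPC4, which with ARPC2 forms the core of the complex, had 28.1 and 23.3 FPKM in Control 1 and Control 2, against 102 and 23.1 FPKM in Cu 1 and Cu 3, so that, as for ARPC3, Cu 1 alone was high. ARPC5L had 34.3 FPKM in Cu 1 against 11.0 to 13.9 FPKM in the other libraries. ARPC2 itself had 42.4 and 56.5 FPKM in Control 1 and Control 2, against 66.5 and 46.9 FPKM in Cu 1 and Cu 3, with overlapping groups. The 2 genes whose groups did not overlap in the 4 libraries went in opposite directions there. ARPC1B had 1.27 and 1.86 FPKM in Control 1 and Control 2, against 4.47 and 3.57 FPKM in Cu 1 and Cu 3, a log2 difference of 0.97 (SE 0.36, adjusted p = 0.656 in limma's test). ARPC5 had 15.0 and 20.1 FPKM in Control 1 and Control 2, against 8.59 and 14.8 FPKM in Cu 1 and Cu 3, a log2 difference of -0.58 (SE 0.40). By the authors' means ARPC5 went the other way, with 13.8 FPKM in Control and 15.0 FPKM in Cu. Its lower level in Cu thus holds only for the 4 libraries analysed. The authors' means of ARPC1B, 1.62 FPKM in Control and 3.24 FPKM in Cu, kept its direction. The log2 difference of ARPC1A, ARPC1B, ARPC2, ARPC4 and ARPC5L was above 0, and that of ACTR3B and ARPC5 was below 0.

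**Figure D2:**
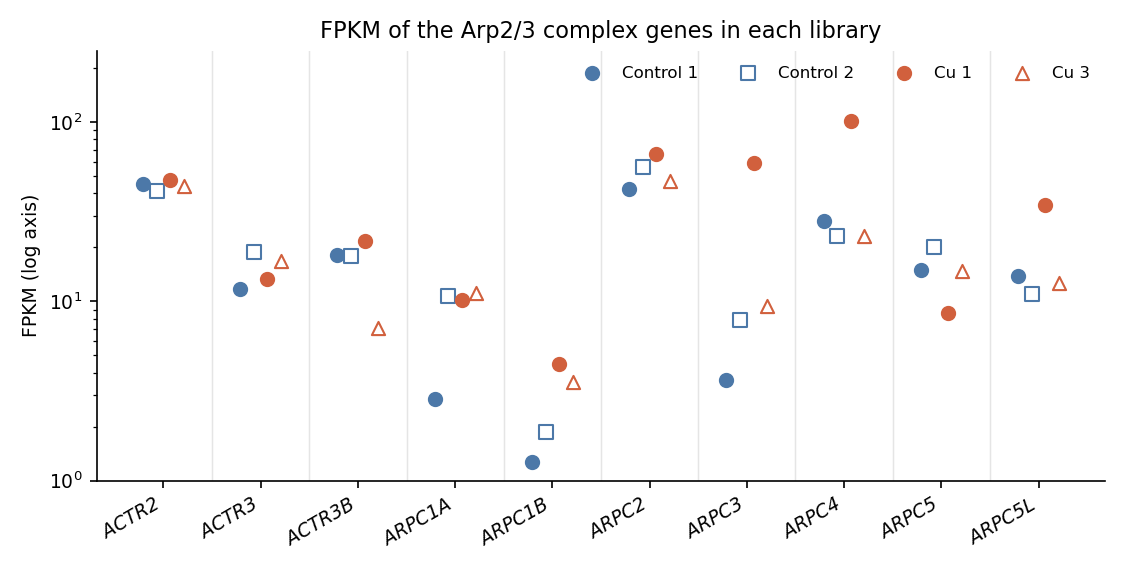
FPKM on a log axis of the 10 Arp2/3 complex genes, 1 point per library, with Control 1 and 2 in blue and Cu 1 and 3 in orange. Cu 1 is far above the other libraries for ARPC3, ARPC4 and ARPC5L, while ACTR2 and ARPC2 have similar levels in the 4 libraries.

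CFL1 and PFN1, which turn filaments over, were both highest in Cu 1, and their groups overlapped. CFL1 had 2.83 and 3.70 FPKM in Control 1 and Control 2, against 8.97 and 3.17 FPKM in Cu 1 and Cu 3. Cu 3 lay between the Control libraries, and the log2 difference of 0.60 (SE 0.51) became -0.025 without Cu 1. PFN1 had 25.8 and 55.3 FPKM in Control 1 and Control 2, against 81.3 and 38.3 FPKM in Cu 1 and Cu 3. The 2 Control libraries differed 2.14-fold and the 2 Cu libraries 2.12-fold, more than the 1.47-fold difference between the group means, and the log2 difference of 0.55 (SE 0.52) was 0.014 without Control 1, 0.015 without Cu 1 and 1.08 without Control 2 or without Cu 3. Within a library PFN1 was 9.06 to 14.9 times as abundant as CFL1. The low level of CFL1 stood beside a high level of DSTN (destrin), which belongs to the same family of filament-cutting proteins. DSTN had 1796 and 2650 FPKM in Control 1 and Control 2, against 2185 and 2280 FPKM in Cu 1 and Cu 3, the highest level of the wider actin list described below, and both Cu libraries lay between the Control libraries. DSTN was 635 and 716 times as abundant as CFL1 in Control 1 and 2 and 244 and 719 times in Cu 1 and 3. CFL1 (identifier 445532) lies on chromosome 2 (6471558 to 6475019) and PFN1 (identifier 100512494) on chromosome 12 (51962642 to 51965570) of Sscrofa11.1.

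The beta-thymosins were unlike each other in these libraries. TMSB10 had 35.0 and 32.4 FPKM in Control 1 and Control 2, against 160.4 and 121 FPKM in Cu 1 and Cu 3. Cu 1 and Cu 3 each exceeded both Control libraries, by at least 3.47-fold, and the spread within a group was small, 1.08-fold in Control and 1.32-fold in Cu. The group means differed 4.18-fold, and the log2 difference of 2.02 (SE 0.30) stayed between 1.77 and 2.22 under the other settings and with each library left out. Since each library pools whole oocytes, a transcript present in fewer cells and less of it per cell cannot be told apart. The methods describe 3 sets per group, of which 2 per group were analysed here by library. The authors' means of TMSB10 were 62.9 FPKM in Control and 108 FPKM in Cu, a 1.71-fold difference. This Control mean is above both Control libraries analysed here and the Cu mean is below both Cu libraries. Taken as means over 3 sets, they could not arise with the groups of TMSB10 apart, nor could those of ARPC3, so that the separation and the small spread hold for the 4 libraries analysed and not for all sets.

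TMSB4X, the main monomer-holding thymosin of many cells, had 1519 and 1338 FPKM in Control 1 and Control 2, against 1585 and 709 FPKM in Cu 1 and Cu 3. Cu 1 was the highest and Cu 3 the lowest of the 4 libraries, and the log2 difference of -0.43 (SE 0.41) was -1.01 without Cu 1 and 0.15 without Cu 3. The authors' means were 1773 FPKM in Control and 1169 FPKM in Cu. A ratio of genes within 1 library is not changed by dividing that library by 1 factor, as median-of-ratios scaling does. Quantile normalization, the other scaling used below, can change it. TMSB10 stood at 0.023 and 0.024 of TMSB4X in Control 1 and 2 and at 0.10 and 0.17 of TMSB4X in Cu 1 and 3, and by the authors' means at 0.035 in Control and 0.092 in Cu. The direction was thus the same in both Cu libraries, although their TMSB4X differed 2.24-fold. The authors' ratio was above both libraries in Control and below both in Cu, so the separation of this ratio need not hold for all sets. TMSB15B, another gene of the family in the table, had 131 to 183 FPKM in the 4 libraries and was 4.08 and 4.28 times as abundant as TMSB10 in Control 1 and 2, against 0.82 and 1.51 times in Cu 1 and 3. The authors' means of TMSB15B were 226 FPKM in Control, above all 4 libraries, and 143 FPKM in Cu. By these means it was 3.59 times as abundant as TMSB10 in Control and 1.33 times in Cu. TMSB10 (identifier 100037998) lies on chromosome 3 (59776236 to 59777252) and TMSB4X (identifier 733606) on chromosome X (9649516 to 9651662) of Sscrofa11.1. Thymosin, cofilin, profilin and cytoplasmic actin genes have close copies in mammalian genomes, among which reads could have been divided.

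Set against actin itself, the thymosins differed between the groups in opposite directions in the 4 libraries analysed. ACTB and ACTG1 encode the cytoplasmic actins, whose near-identical sequences make their separate values uncertain, so their FPKM were summed. TMSB4X was 7.19 and 7.19 times the summed actins in Control 1 and 2 and 5.41 and 3.50 times in Cu 1 and 3, so both Cu ratios were below both Control ratios, and by the authors' means it was 9.60 times in Control and 5.30 times in Cu. In Cu 1 the lower ratio came from the actins, since TMSB4X itself was highest there (1585 FPKM). Both ACTB (106 FPKM) and ACTG1 (187 FPKM) were above both Control libraries in Cu 1. TMSB10 was 0.17 times the summed actins in both Control libraries and 0.55 and 0.60 times in Cu 1 and 3, but by the authors' means 0.34 times in Control and 0.49 times in Cu. As for the level of TMSB10, the separation of this ratio was seen in the 4 libraries and need not hold for all sets. For PFN1 the ratio was 0.12 and 0.30 in Control 1 and 2 and 0.28 and 0.19 in Cu 1 and 3, with both Cu ratios between the Control ratios. These ratios belong to the comparison on which the genes were selected and were not tested.

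**Figure D3:**
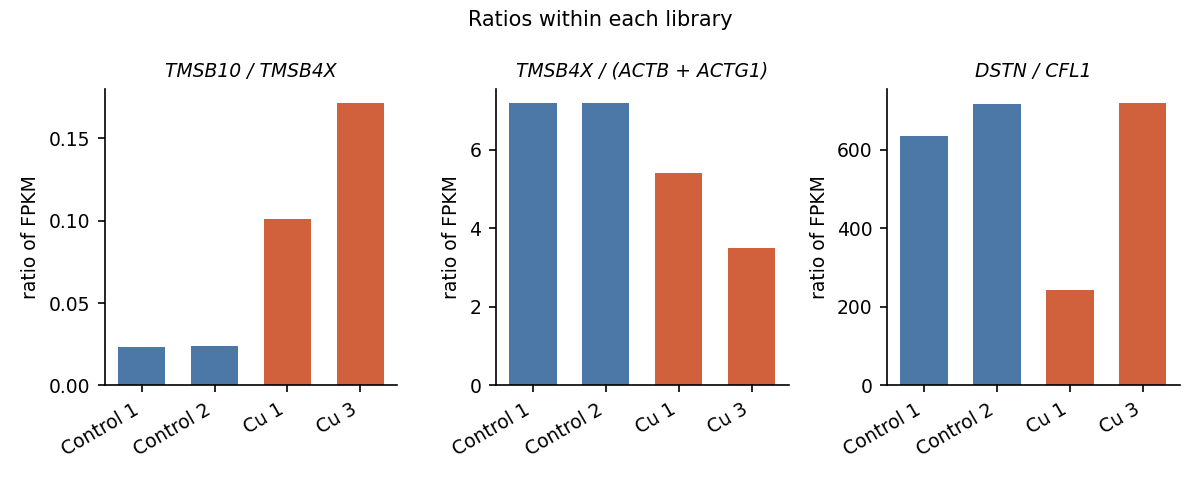
Ratios of FPKM within each library (bars from 0, 1 bar per library, Control in blue and Cu in orange) for TMSB10 over TMSB4X, TMSB4X over the sum of ACTB and ACTG1, and DSTN over CFL1. The first ratio is higher and the second lower in both Cu libraries, while the third is low in Cu 1 (244) but not in Cu 3 (719).

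Over the 9 genes the Cu and Control libraries did not overlap for 2, TMSB10 and ARPC3, both of them higher in Cu. Of all 8541 genes tested, 38.8% did not overlap between the groups (25.4% with Cu higher and 13.4% with Cu lower), and since the genes were chosen with this comparison known, nothing is read from the count. The median log2 difference was 0.088 over the 9 genes and 0.16 over all tested genes. Cu 1 held the highest value in 8 of the 9 genes, all but ACTR3, and in 51.0% of all tested genes. Cu 1 and Cu 3 lay farther apart than the Control libraries did in 6 of the 9 genes, and in 70.5% of all tested genes. Relative to the median of all genes, the log2 difference was 1.86 for TMSB10, 1.81 for ARPC3, 0.44 for CFL1, 0.39 for PFN1 and between -0.59 and -0.075 for TMSB4X, SPIRE1, FMN2, ACTR3 and ACTR2. Quantile normalization and median-of-ratios scaling lowered the median of all genes by 0.23 and by 0.21. Under both, the Cu libraries of FMN2, SPIRE1 and TMSB4X all lay below the Control libraries, the log2 differences of ACTR2 and ACTR3 were below 0, and those of TMSB10 and ARPC3 were 1.77 to 1.88 and 1.74 to 1.80.

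**Figure D4:**
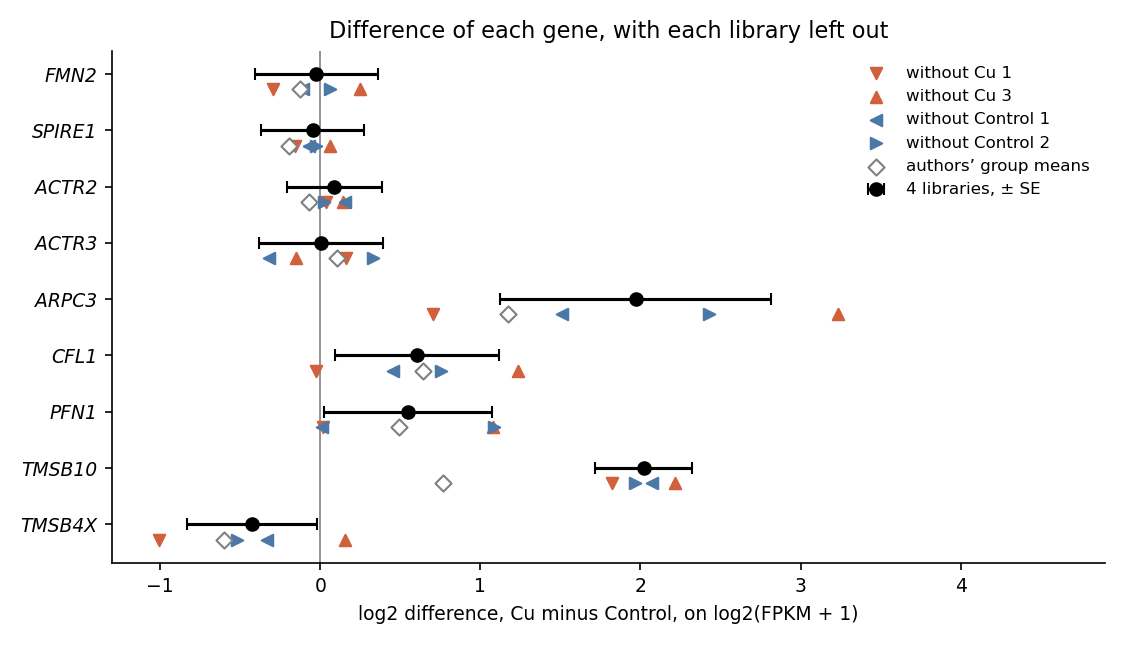
The log2 difference of each of the 9 genes on log2(FPKM + 1), Cu minus Control, from the 4 libraries (black point, bar ± SE), with 1 library left out (filled triangles) and from the authors' group means (open diamonds, no error). TMSB10 stays between 1.82 and 2.22 whichever library is left out but is at 0.77 by the authors' means, and ARPC3 ranges from 0.70 without Cu 1 to 3.24 without Cu 3.

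The length of the gene on the genome moved with the difference. Of the 9 genes, CFL1, PFN1, TMSB10 and TMSB4X span under 5 kb, and 823 tested genes of that size had a median log2 difference of 0.54, with 41.4% of them higher in both Cu libraries than in both Control libraries. SPIRE1, ACTR3 and FMN2 span 50 kb or more, where 3256 tested genes had a median of 0.052 and 21.3% were higher. Between these, 869 genes of 5 to 10 kb, with ARPC3 among them, had a median of 0.39 and 3593 genes of 10 to 50 kb, with ACTR2, had 0.18. In the shortest genes the median difference from the Control mean was 0.91 in Cu 1 and 0.17 in Cu 3. The difference of TMSB10 was above the median of its size class and that of TMSB4X below it, and the part of gene length in the differences was not tested.

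Beyond the 9 genes, 169 further genes of the actin system were listed by role, of which 152 had values and 102 were tested, that is, reached 1 FPKM in 2 libraries or more. In limma's test 0 of these 102 genes passed an adjusted p of 0.05, as did 0% of all tested genes, whose smallest adjusted p was 0.631. At an unadjusted p of 0.05 there were 2, ARPC1B higher and ABI1 lower in Cu, beside 7.01% of all tested genes, 5.58% higher and 1.43% lower. The Cu libraries lay above the Control libraries in 17 and below them in 18 of the 102 genes, that is, 34.3% against 38.8% of all tested genes, and the median log2 difference was 0.14. Without Cu 3, 14 of the 102 genes passed an adjusted p of 0.05, as did 20.5% of all tested genes, and without Cu 1 0 of 102 did, against 2.18% of all.

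Among 18 tested genes that switch the Arp2/3 complex on, 2 were separated upward and 6 downward, with a median of -0.017. These are 44.4% of the class, beside 38.8% of all tested genes (25.4% upward and 13.4% downward). The counts of single classes, here and below, are descriptions of a few genes each, and nothing is read from them. ABI1, a subunit of the WAVE complex that activates Arp2/3 at membranes, had 94.0 and 79.3 FPKM in Control 1 and Control 2, against 47.0 and 46.6 FPKM in Cu 1 and Cu 3. Its Cu libraries lay below both Control libraries and close together, with a log2 difference of -0.87 (SE 0.29, adjusted p = 0.656 in limma's test). The authors' means of ABI1 were 83.4 FPKM in Control and 58.8 FPKM in Cu. This Cu mean is above both Cu libraries, so the separation and small spread need not hold for all sets. The other genes of that complex were singled out after their values had been seen. CYFIP1, CYFIP2, WASF1 and BRK1 were also below both Control libraries in both Cu libraries, whereas NCKAP1, NCKAP1L, WASF2 and WASF3 overlapped. With ABI1, 5 of 9 tested WAVE complex genes were lower and 0 higher, beside 13.4% of all tested genes lower, or 23.6% and 22.0% under quantile normalization and median-of-ratios scaling, and since the complex was picked for these values nothing is read from the count. For BRK1, the most abundant of the activators, the distance was small, with 82.3 and 81.5 FPKM in Control 1 and Control 2, against 79.9 and 73.8 FPKM in Cu 1 and Cu 3. The authors' means of BRK1 went the other way, with 73.0 FPKM in Control and 97.2 FPKM in Cu. Those of CYFIP1, CYFIP2 and WASF1 were lower in Cu. WASHC3, not counted in that complex, was also separated downward. It had 1.73 and 1.52 FPKM in Control 1 and Control 2, against 0.59 and 0.53 FPKM in Cu 1 and Cu 3. It was tested only because both Control libraries reached 1 FPKM, which fixed its direction. Its authors' means went the other way, with 1.08 FPKM in Control and 1.52 FPKM in Cu. JMY, a nucleation factor that also acts in oocytes, and CTTN (cortactin) were the 2 activators separated upward. By the authors' means JMY hardly differed, with 23.1 FPKM in Control and 23.2 FPKM in Cu. This Control mean is above both Control libraries and above Cu 3, so the separation of JMY need not hold for all sets. The authors' means of CTTN, 8.59 FPKM in Control and 14.5 FPKM in Cu, kept its direction.

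The 11 other tested formins had a median of 0.31, with 2 separated upward and 2 downward, and FMNL2, the most abundant of them, had 36.7 to 42.0 FPKM in the 4 libraries. In the class listed as other monomer-binding nucleators, 2 genes were tested, COBLL1 and LMOD3, and both were separated downward. COBLL1 had 45.2 and 43.8 FPKM in Control 1 and Control 2, against 33.1 and 35.5 FPKM in Cu 1 and Cu 3. COBL of this class was below 1 FPKM in every library and was not tested. Among 8 tested severing and depolymerising proteins 0 were separated, and 2 of 4 cofilin kinases and phosphatases were separated downward. The latter were the slingshot phosphatases SSH1 and SSH2, which remove the inhibiting phosphate from cofilin, and SSH2 had 19.6 and 19.9 FPKM in Control 1 and Control 2, against 13.9 and 13.2 FPKM in Cu 1 and Cu 3. Among 4 inhibitors of Arp2/3 and branch removers 1 was separated downward, and the most abundant, GMFB, was at 190.6 FPKM in Cu 3 against 88.3 to 92.8 FPKM in the other libraries. The authors' means of GMFB were 94.7 FPKM in Control and 168.8 FPKM in Cu. This Cu mean is far above Cu 1, so Cu 3 need not be the exception over all Cu sets.

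Genes of proteins that cap, bundle and pull on filaments were counted by role. Of all tested genes 25.4% were separated upward and 13.4% downward, with a median of 0.16, and nothing is read from these small classes. The 7 capping genes had a median of -0.23, with 1 separated upward and 2 downward. The median was 0.39 for 6 crosslinkers, with 3 separated upward and 0 downward, and 0.33 for 13 myosins, with 5 upward and 1 downward. Among the myosins separated upward, MYO1C reached 1 FPKM only in the Cu libraries, so the filter fixed its direction. It had 0.58 and 0.89 FPKM in Control 1 and Control 2, against 2.32 and 1.03 FPKM in Cu 1 and Cu 3. SPTBN1, a spectrin and the most abundant crosslinker, had 46.1 and 37.8 FPKM in Control 1 and Control 2, against 54.5 and 53.7 FPKM in Cu 1 and Cu 3. RDX (radixin), which ties filaments to the membrane, had 80.7 and 72.5 FPKM in Control 1 and Control 2, against 69.1 and 38.1 FPKM in Cu 1 and Cu 3, and among the 3 membrane linkers 1 was separated upward and 1, RDX, downward. TPM1, the only tropomyosin tested, had 4.64 and 9.44 FPKM in Control 1 and Control 2, against 9.11 and 12.8 FPKM in Cu 1 and Cu 3, with overlapping groups. Of the 2 actins tested, ACTB was separated upward, with 101 and 68.7 FPKM in Control 1 and Control 2, against 106 and 117 FPKM in Cu 1 and Cu 3, while ACTG1 overlapped, with 111 and 117 FPKM in Control 1 and Control 2, against 187 and 85.2 FPKM in Cu 1 and Cu 3. The 3 other profilin and thymosin genes all overlapped. The directions of the classes are those of the FPKM as deposited, and with the scalings above the median of the 102 genes was -0.076 and -0.071. By the authors' means RDX was at 61.8 FPKM in Control, below both Control libraries, and at 58.5 FPKM in Cu. ACTB was at 68.8 and 97.2 FPKM and SPTBN1 at 44.6 and 47.0 FPKM, with each Cu mean below both Cu libraries. The separation of these genes was seen in the 4 libraries analysed and need not hold for all sets.

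**Figure D5:**
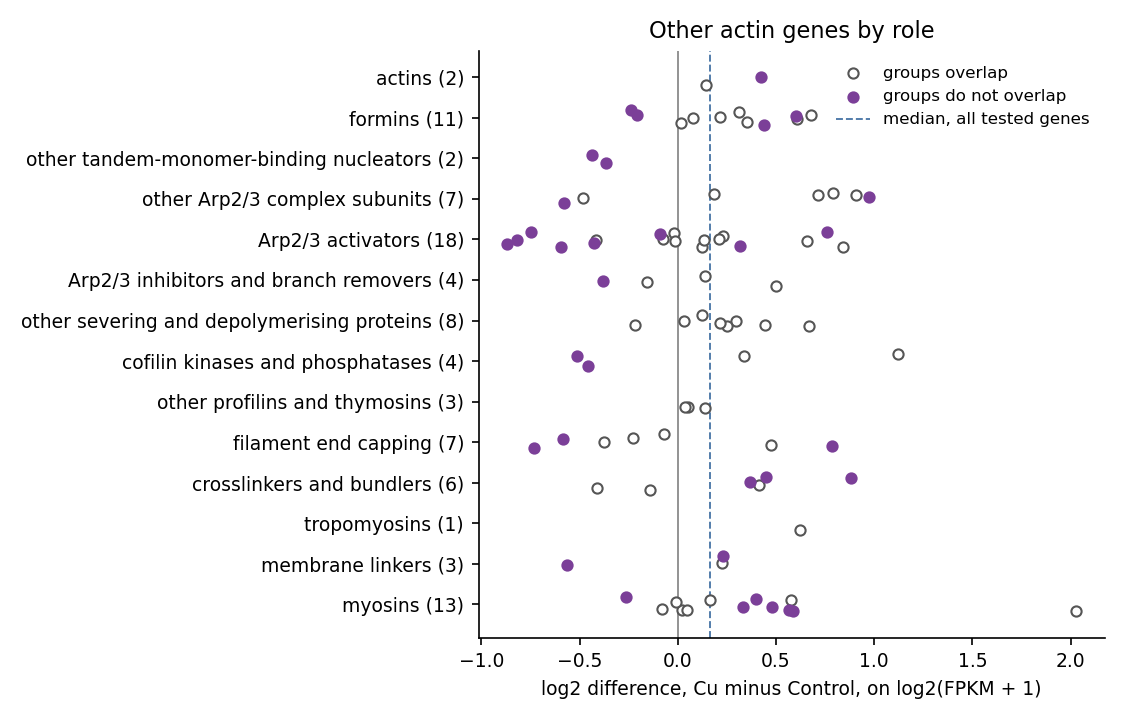
The log2 difference on log2(FPKM + 1), Cu minus Control, of 89 tested genes of the wider actin list by role, with the number of tested genes in parentheses, filled points for genes whose Cu and Control libraries do not overlap, and a dashed line at the median of all tested genes (0.16). Points lie on both sides of 0 in most classes, and the farthest one, MYL6 at 2.03, has overlapping groups.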

How the data were processed

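The deposited table holds FPKM per gene and library, rounded to 2 decimals by the authors, and their mean FPKM of each group, which is given here only as the authors' mean. Per the study's methods, reads were filtered with SOAPnuke, mapped with HISAT2 and Bowtie2 and quantified with RSEM, whereas the submitters' processing notes name TopHat2 2.0.13, Cufflinks 2.2.1, Cuffnorm and Cuffdiff and the build Sscrofa11.1. Which of these made the FPKM is not given in the sources used here. The smallest value above 0 was 0.01 in each library, so read counts were not recovered, depth is unknown and no count test was run.

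Of 30684 rows, 16050 hold values, and all of these identifiers matched the RefSeq table of Sscrofa11.1, the source of the coordinates. Cu and Control were compared by limma (version 3.58.1, under R 4.3.3, with lmFit and a variance trend in eBayes) on log2(FPKM + 1) for 8541 genes that reached 1 FPKM in 2 libraries or more, with Benjamini-Hochberg adjustment over all of them and a threshold of 0.05. The fit was tested on simulated data. The 9 genes with values passed the filter in all 4 libraries. They and the lists (actin system, oocyte, cumulus, leukocyte) were chosen with earlier results of these data known. Named beside them were the most abundant tested gene of each role, and up to 5 genes per direction with the smallest unadjusted p at 0.05 or less and separated groups. One role of the wider list, counted in its totals, is not reported here. Other genes were chosen after their values were seen. Alternatives were a pseudocount of 0.1, no filter, 2 scalings, no variance trend and leaving out each library. The authors' means were added after seeing the data.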

Additional observations from a re-analysis of the deposited data

How the results depend on the processing

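The counts of the wider actin list at an unadjusted p of 0.05, 1 higher and 1 lower, became 0 higher without the filter and 0 higher and 4 lower under quantile normalization and median-of-ratios scaling. Separated genes with Cu higher numbered 28 without the filter and 9 under quantile normalization, in place of 17. The list median of 0.14 was -0.076 under quantile normalization and -0.071 under median-of-ratios scaling. With 1 library left out, which assumes that the lone library of a group varies like the others, genes at an adjusted p of 0.05 ranged from 0 to 14 and the counts at an unadjusted p from 0 to 24 higher and 0 to 6 lower, with each upper value without Cu 3. Separated genes ranged from 29 to 51 higher and 24 to 39 lower, where fewer libraries separate more easily, and the list median from 0.012 to 0.23. The median of the 9 genes ranged from 0.014 to 0.33. The cause was not tested. A pseudocount of 0.1 and the fit without variance trend kept every count of the list within 1.5 times. No paired analysis was possible because the groups share only replicate number 1.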

Other observations

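Among the most abundant tested genes of the reported roles, MYL6, CAPZA1, GMFB, ACTG1 and TMSB15B had their 2 Cu libraries on opposite sides of both Control libraries. Other genes did so too, among them FMN2, SPIRE1, TMSB4X and ARPC4. MYL6, a light chain of non-muscle myosin, had 199 FPKM in Cu 1 and 4.83 FPKM in Cu 3 against 7.0 and 7.77 FPKM in Control 1 and 2, and its log2 difference was 4.58 without Cu 3 and -0.52 without Cu 1. CAPZA1, a subunit of the protein that caps filament ends, had 37.6 FPKM in Cu 1 and 96.8 FPKM in Cu 3 against 82.8 and 75.2 FPKM in Control 1 and 2. The high library was Cu 1 for MYL6 and ACTG1 and Cu 3 for CAPZA1, GMFB and TMSB15B.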
